A study of Homo sapiens with 4 samples.

Results

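The basal miRNA profile of LAPC-4, an androgen receptor-positive human prostate cancer cell line, was described from the 1 array of untreated cells. All probes made to match a human miRNA perfectly were taken, 1 for each miRNA name, which gave 455 of the 785 miRNAs of any species with such a probe, and of 1406 probe names in all. The study held 4 samples of this line, 1 for each dose of 0, 0.1, 1 and 10 nM of R1881, a synthetic androgen. Per the labels, cells were first held without androgen for 24 hours, with serum (10%) that charcoal had stripped of steroids, and then received R1881 or none, and all 4 samples share this step. The untreated sample is therefore a picture of androgen-deprived cells of 1 line, not of cells in full serum or of prostate tissue. It is 1 array with no replicate, so no value below has an error between samples, and no test was made.

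MicroRNAs (miRNAs) are short RNAs that guide Argonaute proteins to messenger RNAs. Most are cut from a hairpin precursor by Drosha and Dicer, and one arm of the hairpin is usually kept. The bases just after the 5′ end, called the seed (bases 2 to 8), choose most targets, so miRNAs with the same seed are treated as a family. In prostate epithelium and its tumours the let-7, miR-200 and miR-17 families, miR-21, miR-141, miR-148a and miR-375 are among the miRNAs studied most.

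Several of the brightest probes shared a seed. Mature sequences are printed by seed group, 5′ to 3′ with the seed in capitals, for those of the 20 brightest miRNAs that matched a RefSeq entry and for dimmer relatives and a luminal prostate marker that the families below are compared through. They are RefSeq's sequences of GRCh38.p14. The array's names often give no arm, and the arm that carried that name when the array was designed was taken, so these are miRNA sequences and not the probes' own letters.
miR-191: cAACGGAAucccaaaagcagcug
let-7a: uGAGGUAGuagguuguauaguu
let-7d: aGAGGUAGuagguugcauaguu
let-7f: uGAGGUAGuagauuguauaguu
let-7c: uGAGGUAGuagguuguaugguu
let-7e: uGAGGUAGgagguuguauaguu
let-7i: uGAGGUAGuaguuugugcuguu
miR-16: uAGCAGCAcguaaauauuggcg
miR-15b: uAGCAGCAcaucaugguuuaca
miR-103: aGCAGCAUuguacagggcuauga
miR-107: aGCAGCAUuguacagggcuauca
miR-26a: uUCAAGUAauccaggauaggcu
miR-26b: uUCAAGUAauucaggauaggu
miR-106b: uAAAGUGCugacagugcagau
miR-106a: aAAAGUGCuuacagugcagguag
miR-17-5p: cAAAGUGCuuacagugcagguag
miR-20a: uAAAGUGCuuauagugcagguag
miR-494: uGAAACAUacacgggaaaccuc
miR-21: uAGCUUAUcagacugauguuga
miR-182: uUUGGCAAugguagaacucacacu
miR-200c: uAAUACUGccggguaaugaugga
miR-23b: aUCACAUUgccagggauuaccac
miR-29b: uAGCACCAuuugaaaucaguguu
miR-25: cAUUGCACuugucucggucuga
miR-148a: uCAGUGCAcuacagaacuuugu

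A probe counted as detected where its mean signal exceeded 117.95 intensity units, the 95th percentile of 603 probes that carry 2 mismatches (2mut probes) on the same array. Of 455 members, 129 passed this limit, 28.4%, and 326 did not. The same limit was passed by 5.14% of the 2mut probes, as its construction sets, by 19.7% of 223 rodent-named probes and by 15% of 107 probes for virus or worm miRNAs. The virus and worm probes that passed were led by that for viral miR-K12-3 at 212.25. All were for viral miRNAs except that for worm miR-34 at 138, which has human relatives. Members near the limit are weakly separated from these probes. Signals of different probes also depend on how well each probe binds, and an order of signals is not an order of molecule numbers.

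miR-191, transcribed from an intron of DALRD3 on chromosome 3, had the highest signal at 4062 intensity units. That is 34.4 times the limit. The mature form lies at chr3:49020672-49020694 on the minus strand (GRCh38.p14). let-7a, whose family of tumour suppressors targets RAS and HMGA2 mRNAs, followed at 2384, and miR-16, which targets BCL2 and cyclin mRNAs, at 1880. miR-103 and miR-107, which lie in introns of the pantothenate kinase genes PANK2, PANK3 and PANK1, read 1733 and 1589. Next came let-7d at 1457 and miR-26a, located in the phosphatase genes CTDSPL and CTDSP2, at 1364. These 7 were the only members above 1000.

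**Figure D1:**
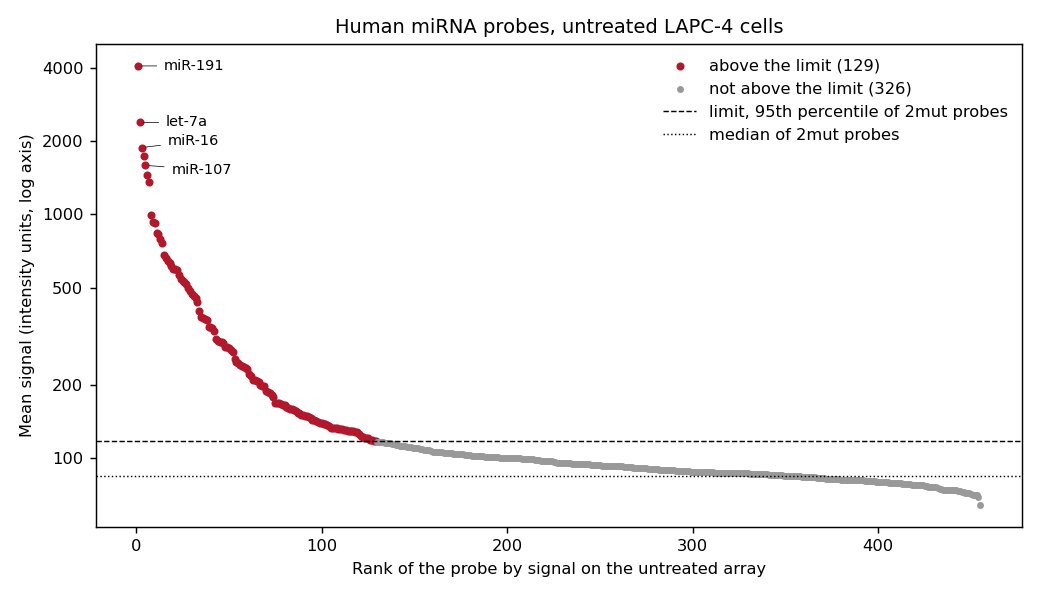
Mean signal (intensity units, log axis) of each of the 455 human miRNA probes on the untreated array, against its rank. Red points are the 129 probes above the limit of 117.95 (dashed line) and grey points the 326 others. The dotted line is the 2mut median of 84.5. The curve drops steeply over the first 20 ranks and flattens near the limit.

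Between 500 and 1000 stood another set of well-known miRNAs. let-7f read 996, miR-26b, from CTDSP1, 927, and miR-494, from the imprinted region of chromosome 14, 921. miR-21, which targets PDCD4 mRNA and lies in VMP1 at chr17:59841273-59841294 on the plus strand (GRCh38.p14), read 841, and miR-182, of the miR-183-96-182 cluster, 835. miR-106b, in MCM7, read 794 and miR-425-5p, the neighbour of miR-191, 763. miR-200c, which holds down the epithelial to mesenchymal regulators ZEB1 and ZEB2, read 683. miR-23b, miR-30b, miR-29b, miR-106a and miR-25 completed the 20 brightest, at 662 to 598, and 28 members in all exceeded 500.

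Signal was concentrated in few probes. miR-191 held 8.17% of the summed signal of the 129 detected members, the 10 brightest 34.8% and the 20 brightest 49.0%. The median of the detected members was 207 and that of the others 89.0, close to the 2mut median of 84.5. Of the detected members, 62 read below 200 and 39 below 150.

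Just above the limit stood miR-637 at 121, miR-660 at 119.5, miR-19a at 119, and miR-136 and miR-483 at 118. Just below it were miR-18b at 117, miR-605 and miR-640 at 116.75, miR-639 at 116.5 and miR-30e-3p at 116. These 10 probes span 5 intensity units. miR-19a and miR-18b belong to the miR-17-92 cluster and its X-linked copy, so the limit divides paralogous clusters whose brighter members are far above it.

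Each member has its own 2mut probe, which allows a background for each miRNA. For let-7a the matched probe read 2384 and the 2mut probe 81.0, and for miR-494 the values were 921 and 70. miR-191 read 4062 against 193.5 on its 2mut probe, and among the 20 brightest it alone had a 2mut probe above the limit. Over the 20 brightest the ratio of matched to 2mut signal was 6.48 to 29.4, with a median of 11.4. Their 2mut probes read 70 to 193.5.

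The ratio was smaller for the rest. The median over the 129 detected members was 2.44, against 1.08 over the 326 others. In all, 74 members (16.3%) read at least 2 times their 2mut probe, all of them detected, against 1 of 73 virus and worm probes with a 2mut probe (1.37%). In 4 detected members the 2mut probe was at least as bright as the matched one. miR-568 read 133.5 against 288, miR-615 140 against 167.5, miR-346 130 against 141, and miR-335 121.75 against 145.5.

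**Figure D2:**
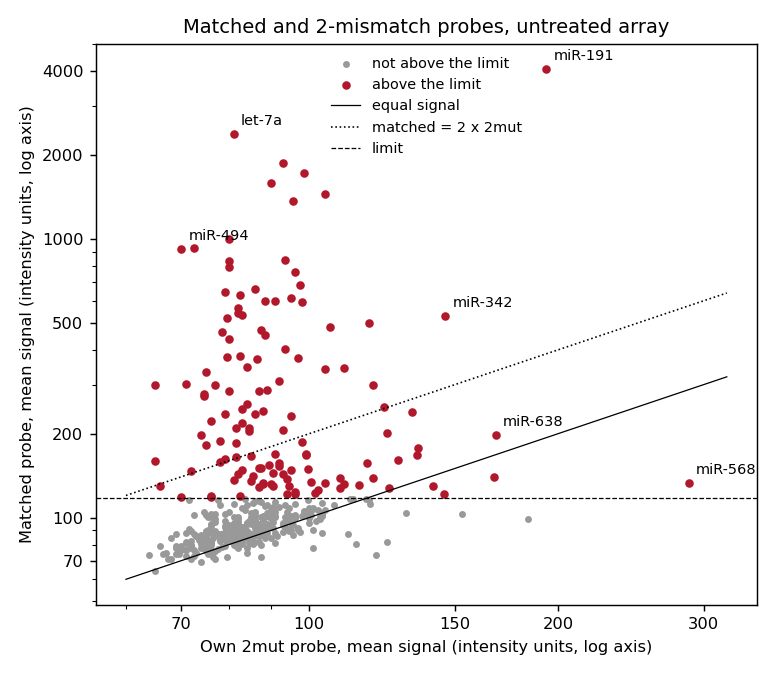
Signal of each matched human miRNA probe (vertical, intensity units, log axis) against its own 2mut probe (horizontal, log axis) on the untreated array. Red points are detected members. Most lie above the dotted line (2 times the 2mut signal), and miR-568 lies below the line of equal signal at 133.5 against 288.

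Base composition was set beside the signal. For 112 of 129 detected members (86.8%) a mature sequence could be matched, with a GC content of 25 to 90.9% and a median of 46.5%. Across these probes the 2mut signal had a Spearman correlation of 0.46 with GC content and the matched signal one of −0.26. The probes share 1 array, are not independent and were chosen by a matched signal above the limit, which can itself shape these values. The part of base composition in the order of the signals was not tested.

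Seed families were read from the 112 matched sequences, which hold 74 seeds. At least 2 detected members shared a seed in 20 cases, which took in 58 miRNAs. The 5 seeds with the largest summed signal, those of let-7, miR-191, miR-17, miR-103 and miR-16, held 41.6% of the detected signal.

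The let-7 family had the largest summed signal of the seed groups. All 9 members (let-7a to let-7g, let-7i and miR-98) were detected, against 28.4% of all 455 members. Their median was 462 against 95.75 over all members, and together they held 13.6% of the detected signal. let-7a read 2384, let-7d 1457, let-7f 996, let-7c 473, let-7g 462, let-7b 345, miR-98 272, let-7e 235 and let-7i 153. Counted from 1 at the 5′ end of let-7a, let-7f differs by G12A, let-7c by A19G, let-7e by U9G and let-7d by U1A and U16C. Signals of members that are 1 base apart ranged from 235 (let-7e) to 2384 (let-7a). The 2mut probes read 74.5 to 110 for this family, but they carry 2 mismatches, so they do not show how far a probe separates members that are 1 base apart.

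The miR-17 seed family, which promotes the cell cycle, was read from its 6 members in 3 related clusters. Other members that may share the seed were not listed, so the counts below hold for these 6 only. The 6 read 794 (miR-106b), 616 (miR-106a), 597 (miR-20a), 594 (miR-17-5p), 483 (miR-93) and 403 (miR-20b). All 6 were detected, against 28.4% of all 455 members. Each was at least 2 times its 2mut probe, as were 16.3% of all members. miR-106a differs from miR-17-5p by C1A and miR-20a by C1U and C12U, and these 3 were the members closest in signal. How far their probes separate such close members was not tested. The family held 7.02% of the detected signal.

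miR-103 and miR-107 held 6.68%. They differ by G22C, counted along miR-103, and read within 1.09-fold of each other. How far probes separate such close members was not tested, so the signals of this pair may overlap. The miR-15/16 family, which restrains cyclins, held 6.06%, and most of that was miR-16 at 1880. miR-15b read 376.5, miR-15a 309, miR-195 303 and miR-497 143, while miR-424 was not detected at 102.5. miR-16 differs from miR-15b at 8 positions outside the seed. miR-26a and miR-26b, which target EZH2 mRNA, held 4.61%.

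Other families were detected at middle signals. The miR-29 family, which targets collagen and DNMT3 mRNAs, read 631 (miR-29b), 299.5 (miR-29c) and 221 (miR-29a). The miR-99/100 family, which targets MTOR mRNA, read 533.5 (miR-99a), 284 (miR-100) and 218.5 (miR-99b), and their cluster partners miR-125b and miR-125a read 437 and 381. Of 5 miR-30 miRNAs, miR-30e-5p stayed under the limit at 91.0, and the other 4 read 198 to 645.5. Of miR-148a, miR-148b and miR-152, which target DNMT1 mRNA, the first read 566, the second 166 and miR-152 was not detected at 102. miR-221 and miR-222, which target CDKN1B mRNA and come from 1 transcript, read 231.5 and 139. The miR-34 family list held miR-34a, miR-34b and miR-34c, which p53 induces, and miR-449. Of these 0 of 4 were detected, at 89.25 to 107, against 28.4% of all members. At the 90th percentile of the 2mut probes (103.4) 2 of the 4 would pass. miR-449b, not on that list, read 115.5, also under the limit and above 103.4. The probe for worm miR-34 passed at 138.

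**Figure D3:**
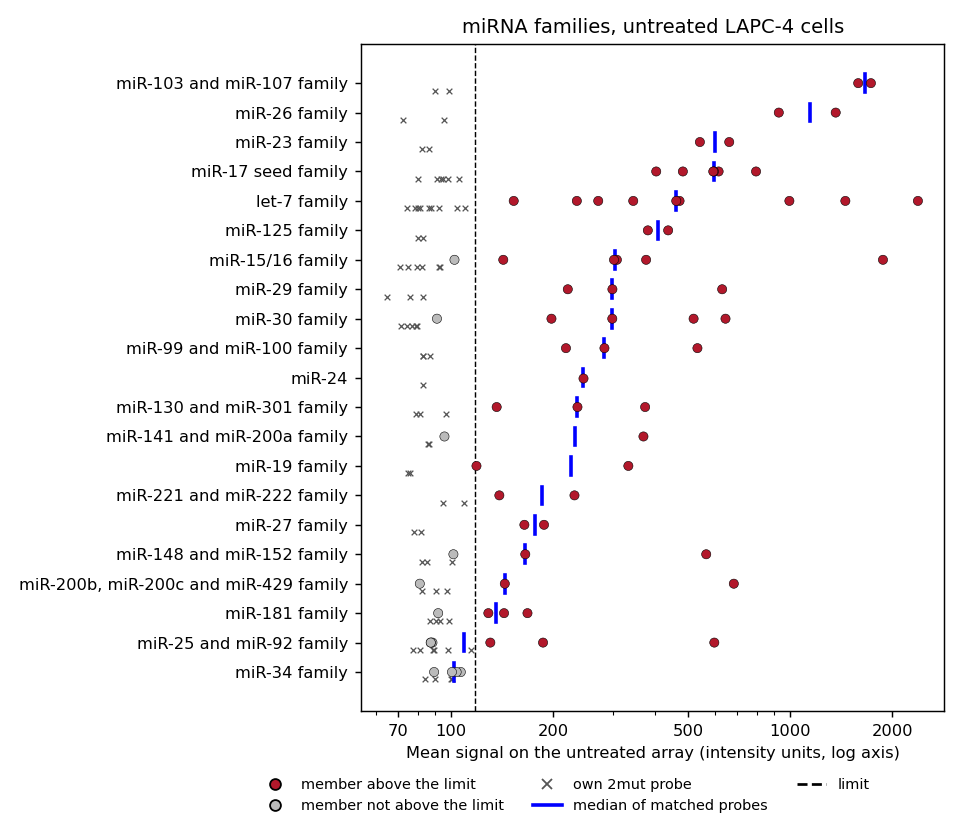
Signal on the untreated array (intensity units, log axis) of the listed members of 21 miRNA families, ordered by their median (blue bar). Red points are detected, grey points not, and crosses are the members' own 2mut probes. The miR-103/107, miR-26, miR-23, miR-17 and let-7 families lie furthest to the right, and no miR-34 member passes the limit at 117.95 (dashed line).

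Members of 1 primary transcript did not share 1 signal. In the miR-17-92 cluster, on chromosome 13, all 7 probes were detected, against 28.4% of all members, but 4 passed at the 99th percentile of the 2mut probes and 3 read at least 2 times their own 2mut probe. They read 597 (miR-20a), 594 (miR-17-5p), 334 (miR-19b), 187 (miR-92), 150 (miR-18a), 130 (miR-17-3p) and 119 (miR-19a). The miR-106b-25 cluster in MCM7 was more even, at 794, 598 (miR-25) and 483 (miR-93). In the X-linked copy, miR-106a-363, 4 of 6 were detected. These included miR-19b and miR-92, whose mature forms also come from chromosome 13, while miR-363 was not detected at 87.25. The miR-183-96-182 cluster read 209, 347 and 835. Within a cluster these gaps come from different probes, and whether they lie in the RNA or in the probes was not tested.

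Both arms of 42 hairpins had a probe by name, 5p with 3p or with and without a star. Any arms under unlike names were not paired. In 10 of them 1 arm was detected, in 2 both and in 30 neither, where 28.4% of all members were detected. miR-191 read 4062 and miR-191* 90.5, miR-182 read 835 and miR-182* 69.5, and miR-425-5p read 763 against 115 for miR-425-3p. Both arms were detected for miR-17 (594 for 5p and 130 for 3p) and miR-324 (341.5 for 5p and 132 for 3p). None of the 28 probes named with a star, the sign once given to the minor arm, passed the limit that 28.4% of all members passed, and the highest was miR-302a* at 110.5.

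The labelled cell type was set against marker miRNAs, and the counts stand against 28.4% of all members detected. Of 5 epithelial miRNAs, miR-200c (683), miR-141 (370) and miR-200b (144) were detected, while miR-200a (95.75) and miR-429 (81.0) were not. miR-200c and miR-141 come from the cluster on chromosome 12, and miR-200b, miR-200a and miR-429 from that on chromosome 1. The luminal prostate markers miR-148a (566) and miR-375 (141) were detected, and miR-375 was close to the limit. The basal markers miR-205 (78.75) and miR-203 (93.25) were not.

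For other tissues most defining markers lay under the limit, and the counts stand against 28.4% of all members detected. All 6 blood markers read 77.25 to 87.75, among them miR-223 at 78, miR-142-3p at 78.5 and miR-451 at 85. Of the fibroblast and smooth muscle list 1 of 5 was detected, miR-214 at 169, with miR-143 at 82.5 and miR-145 at 75.75. The embryonic stem list had 0 of 8 detected, at 83.25 to 106.25, the liver miRNA miR-122a read 100.75, and the 2 pancreatic markers 87.0 and 92.5. Of 5 striated muscle miRNAs miR-206 alone was detected, at 157.5 against 117.5 on its 2mut probe, and miR-1 read 78.

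The endothelial miRNA miR-126, in EGFL7, read 278.5 against 74.5 on its 2mut probe, and miR-126* from the same hairpin read 89.0. In the neural list 2 of 7 were detected, a share near the 28.4% of all members. miR-128b (185) and miR-128a (162.5) passed, whereas miR-124a (98.0), miR-9 (95.75), miR-137 (90), miR-219 (84.25) and miR-153 (74.5) were not. miR-128 is found in many tissues and is only enriched in brain.

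**Figure D4:**
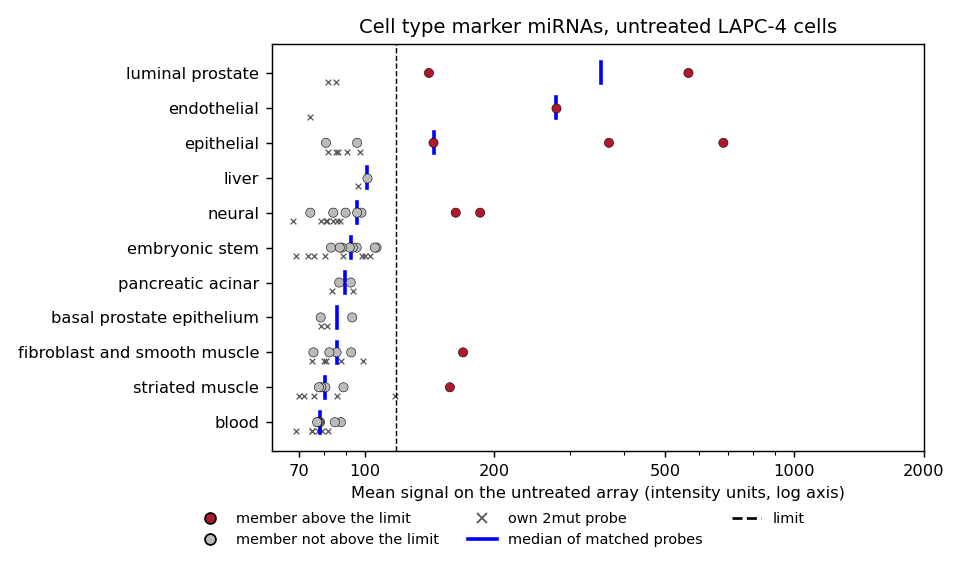
Signal on the untreated array (intensity units, log axis) of marker miRNAs of 11 cell types, ordered by their median (blue bar). Red points are detected, grey points not, and crosses are own 2mut probes. Epithelial markers reach 683, with miR-200a and miR-429 not detected, and luminal prostate markers reach 566. All 6 blood markers lie below 90. In other lists miR-126 reads 278.5, miR-128b 185.25, miR-214 169, miR-128a 162.5 and miR-206 157.5. These exceed epithelial miR-200b (144.25) and luminal miR-375 (140.75).

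Detection was most frequent among miRNAs with low numbers in their names, which roughly follow the order of discovery. From miR-1 to miR-100, let-7 included, 46 of 63 probes were detected (73.0%), from 101 to 200 33 of 81 (40.7%), from 501 to 600 8 of 123 (6.50%) and from 601 to 700 9 of 63 (14.3%), against 28.4% over all. In the detected probes of the last class the median ratio to the 2mut probe was 1.27, against 4.22 in the first. All 49 probes from miR-512 to miR-527, most of them from the placental cluster on chromosome 19, stayed under the limit, at 74.25 to 110.5. Among the 47 members placed on chromosome 14 by RefSeq 6 were detected (12.8%). Of these miR-494 (921) of the imprinted cluster, miR-342 in EVL (529) and miR-345 (285) exceeded 200. The other detected members, miR-485-3p (160.5), miR-432 (128) and miR-136 (118), also lie in the imprinted cluster. Among its undetected members miR-127, miR-376a and miR-410 read 104.5, 81.75 and 87.5.

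Some miRNAs had a further probe under a mouse or rat name. Of 29 such pairs with a detected human-named probe, covering 26 miRNAs, 22 rodent-named probes were detected too, against 19.7% of all rodent-named probes. Of 70 pairs with an undetected human-named probe, 2 had a detected mouse-named one, miR-431 at 77.75 on the human-named and 180.25 on the mouse-named probe, and miR-134 at 99.25 and 152. In 19 pairs the signals were within 1.2-fold, and the median ratio of the human-named to the rodent-named probe was 1.04. miR-494 read 921 and 898, miR-106a 616 and 593, miR-93 483 and 512.5, and miR-96 347 and 378. let-7a read 2384 on the human-named probe and 1493 on the mouse-named one, and miR-99a 533.5 and 318. The widest gaps were miR-345, at 285 against 88.25 on the rat-named probe, and miR-192, at 241 against 75.0 on the mouse-named probe. How far these pairs share their sequence is not given in the files, so they bound the spread between probes of like name and not that of the measurement.

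The order of signals was similar on the arrays of treated cells. Of the 20 brightest, 19 were also among the 20 brightest at 0.1 nM R1881, 18 at 1 nM and 17 at 10 nM, and 16 on all arrays. miR-191 was first on each array, while let-7a stood second on the untreated array and at rank 5 with 10 nM. The members that left the 20 brightest at some dose were miR-25, miR-23b, miR-200c and miR-425-5p, and those that entered were miR-148a, miR-20a and miR-17-5p. Spearman's correlation between the untreated array and those at 0.1, 1 and 10 nM was 0.95, 0.94 and 0.92 across all 455 members. Across the 129 detected probes, which were chosen on the untreated array, it was 0.96, 0.95 and 0.94.

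**Figure D5:**
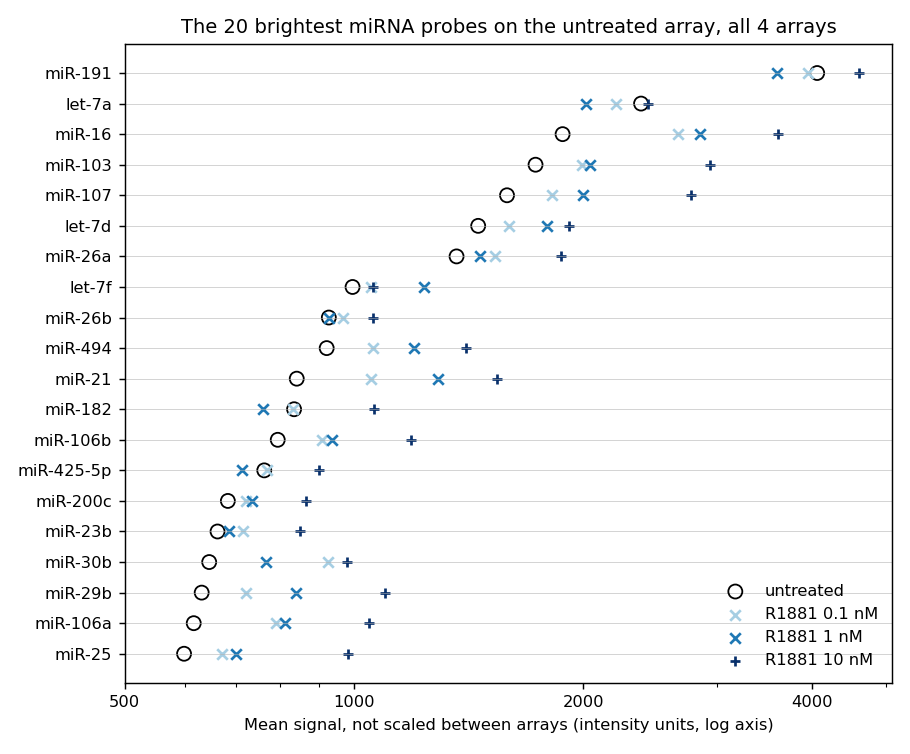
Signal (intensity units, log axis, not scaled between arrays) of the 20 brightest human miRNA probes of the untreated array on all 4 arrays. Open circles are the untreated array and crosses the R1881 doses of 0.1, 1 and 10 nM. miR-191 lies furthest right on each array, and miR-16 reads 1880 without R1881 and 3610 at 10 nM.

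At their own limits of 117.95, 134.65, 137.9 and 143.8 from the untreated array to 10 nM, the arrays had 129, 121, 114 and 117 detected members (28.4, 26.6, 25.1 and 25.7%), and 106 passed on all 4. A further 12 passed on the untreated array alone, at 118 to 140.75, among them miR-375, miR-608, miR-623, miR-92b, miR-383 and miR-181a. Not all of them were dimmer with R1881. miR-383 read 129.25 untreated and 131.75, 124.75 and 134.75 at rising dose. Another 7 passed at some dose but not without R1881, namely miR-605, miR-640, miR-629, miR-326, miR-631, miR-647 and miR-211. miR-211 read 86.0 untreated and 135.75, 129.5 and 164 at rising dose. The limit itself was lowest on the untreated array, and no array has a replicate.

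The values that the submitters list for the untreated sample follow a stricter rule. Set against the mean signals, each listed value of the untreated array in the authors' deposited table is the mean signal minus 84.5, the median of its 2mut probes, and probes below 169, which is 2 times that median, are blank. The authors' deposited table lists 75 of the 455 members for the untreated array (16.5%), and 2 of the 107 virus and worm probes (1.87%). By that rule miR-214, at 169, is the dimmest member listed in the authors' deposited table. miR-375, miR-200b, miR-222, miR-128a and miR-206 are detected here and blank in the authors' deposited table.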

How the data were processed

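Per the labels, 10 µg of total RNA from LAPC-4 cells carried the Cy3 dye on a custom array made by CombiMatrix, and the labels speak of 474 human miRNAs. Each deposited file gives the mean signal intensity of every probe name, per the file headers. The scale is linear, and the values still hold the background. The scanner is not given in the sources used here.

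Titles gave the dose of each sample. Members are probes whose first field is hsa and whose second starts with miR or let, without 2mut. The 2mut probe at 0 was dropped, the 95th percentile of the other 603 was the limit, and signals were ranked unscaled (Python 3.11.15, pandas 2.3.3). The detection step was also run on simulated data. There background and signal-free matched probes were drawn alike, so that run cannot test the limit on this array. Sequences, chromosomes and containing genes came from RefSeq (GRCh38.p14) by miRNA name, with arms assigned from the older naming. 360 members had 1 chromosome. The members, the lists of families, clusters and markers and the alternatives were chosen with earlier results of these data known. Named miRNAs are the 20 brightest, 5 on each side of the limit, up to 6 per list, those with a bright 2mut probe, those detected with or without R1881 alone, and the widest human to rodent ratios. Hosts, sequences and a few further members were named after their values were seen. With 1 array per dose no test was made, and the number of arrays limits the precision. Alternatives were other limits, background corrections (limma 3.58.1 in R 4.3.3, normexp, offset 50) and the values of the authors' deposited table.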

Additional observations from a re-analysis of the deposited data

Results flagged for a closer look

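Probes outside the 455 human miRNA probes also gave signals above 117.95 on the untreated array. Of 107 virus and worm miRNA probes 16 passed, the highest at 212.25, and of 124 rodent-named probes with no human namesake 20 passed (16.1%), led by mouse-named miR-467b at 435.5. Of 6 tRNA probes 1 passed, a glycine tRNA probe at 240, which read 359, 396.5 and 407 at rising R1881 dose. Another glycine tRNA probe, named for the same stretch, read 102.5 untreated, under the limit, and 159.75, 151.75 and 177.5 at those doses. The causes of these signals were not tested.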

How the results depend on the processing

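The number of detected human miRNAs, 129, depended on the limit. It was 178 at the 90th percentile of the 2mut probes (a limit of 103.4), 102 at the 95th percentile of the virus and worm probes (137.55) and 78 at the 99th percentile of the 2mut probes (167.21). Requiring at least 2 times the own 2mut probe left 74, and the authors' deposited table lists 75. The count was 125 when a probe above the limit had also to be brighter than its own 2mut probe. With normexp it was 129, but normexp keeps the order of probes on 1 array, so this count could hardly change. With the probe at 0 kept it was also 129, at a limit of 117.925. The 10 brightest held 34.8% of the summed signal, 42.4% after subtraction of the 2mut median and 43.4% after subtraction of each own 2mut probe. The 20 brightest were the same 20 when ranked by signal minus the own 2mut probe. Over the 118 list members probed, 72 were detected, 78 at the 90th and 56 at the 99th percentile. Over all 455 members these counts were 129, 178 and 78. The lists were chosen with earlier results of these data known, so their higher share is not a result about the families. Detected counts moved by over 1.5 times for 2 lists at the 90th percentile, the miR-34 family and embryonic stem markers with 2 detected each, and for 10 lists at the 99th. At the 99th percentile 4 of the 7 miR-17-92 probes and miR-148a alone of the luminal prostate markers remained. No paired analysis was possible because each dose has 1 array.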
